A study of Saccharomyces cerevisiae with 30 samples.

Results

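The late replicating cluster of chromosome XIV of budding yeast (*Saccharomyces cerevisiae*) is described here as the windows of a genome-wide TrAEL-seq table whose midpoints lie between 180000 and 300000. Positions are in the coordinates of the R64 genome build, which the submitters' processing notes name. The rule used position alone. It took 600 of the 3876 windows of chromosome XIV (15.5%) and of the 59375 windows of the genome that held a read in any library, and no window of the cluster had to be left out for being empty. The windows are 2 kb wide and start every 0.2 kb, so that 60 of them do not overlap. Wholly inside the cluster lie 63 annotated genes, 62 of them protein coding, of 420 on the chromosome in RefSeq.

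Replication of yeast chromosomes starts at short origin sequences, each of which fires at a characteristic time in S phase. Late origins are held back when forks stall, because the checkpoint kinase Rad53 blocks their firing and also acts on the stalled replisome. TrAEL-seq labels free 3′ DNA ends and so reports where forks are in a population of cells, with a pair of peaks around an origin that has fired and a trough over the origin itself. A high signal does not tell apart a fork present in more cells from a fork that stays longer in the same place.

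Of the 4 strains, the triple mutant (*mrc1-AQ cdc45-2A pol1-1A*) lacks known Rad53 contact sites on the fork proteins Mrc1, Cdc45 and Pol1, and the double mutant (*mrc1-AQ cdc45-2A*) lacks those on Mrc1 and Cdc45. In *pol1-1A* only the site on Pol1, the catalytic subunit of DNA polymerase alpha, is changed, and the wild type has none of these alleles. All were arrested in G1 with alpha factor in YPD, released into 200 mM hydroxyurea (HU, which stalls forks by depleting nucleotides), and sampled in the HU block and at 20 and 40 minutes after HU was removed. Each of these 12 groups had 2 replicates, giving 24 libraries, and unsynchronised wild type cells without HU gave 2 further preparations, each sequenced as 3 shares that were averaged.

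The 24 libraries held 2974768 to 10460920 mapped reads and 6567 to 73782 reads in the cluster, and the asynchronous shares held 1965 to 9916 reads there. Signal is given per window as RPM, in which reads are scaled to the mapped reads of their library. The level between peaks differed between replicates, most of all in *pol1-1A* in the HU block, where the median window of the genome had 85.6 RPM in replicate 1 and 18.6 RPM in replicate 2. Each *pol1-1A* value in the HU block therefore rests on a pair of unlike libraries.

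**Figure D1:**
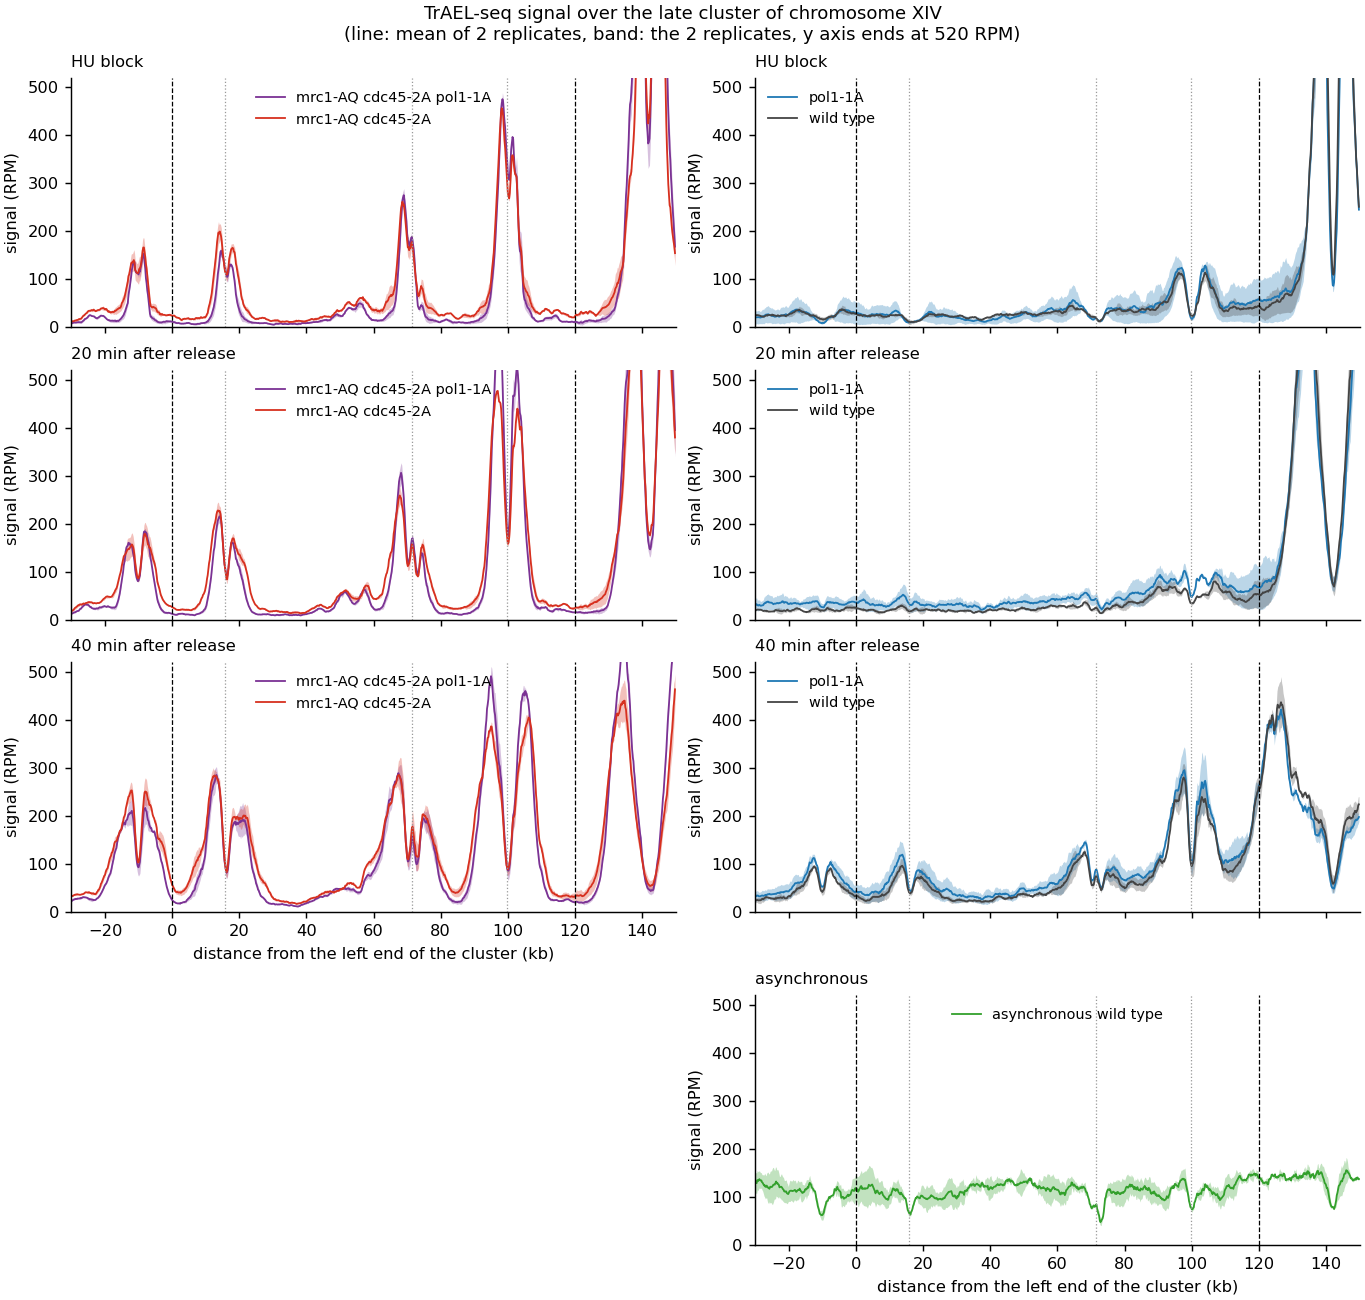
TrAEL-seq signal (RPM) against distance from the left end of the cluster (kb), with the triple and double mutants in the left column, *pol1-1A* and wild type in the right column, and the HU block, 20 minutes and 40 minutes from top to bottom. The lowest panel shows asynchronous wild type cells. Lines are means of the 2 replicates and bands span them, dashed lines mark the ends of the cluster and dotted lines the 3 origins. The double and triple mutants have peaks at the origins in the HU block, and the wild type signal is raised there at 40 minutes. The vertical axis ends at 520 RPM, so that the peaks of O322 are cropped.

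Origins were located from the signal itself, as midpoints of neighbouring peaks in the mean of both double mutant HU block libraries. No list of annotated origins (ARS) was used, so that no ARS name is given to a position here. Of 317 origins in the genome and 18 on chromosome XIV, 3 lay in the cluster, and each is named here by its position in kb. The first, O196, had its midpoint at 195900, inside ATG2 (a lipid transfer protein of autophagy) and next to ZWF1 (glucose-6-phosphate dehydrogenase). The second, O251, lay at 251400 inside MER1 (a meiosis-specific splicing activator) near SSB2 (a ribosome-associated Hsp70 chaperone), and the third, O280, at 279800 inside CHS1 (chitin synthase I). The left and right peaks that placed O251 were unequal, at 260 and 83.8 RPM, so its position is less certain. Those of O196 had 199 and 165 RPM and those of O280 455 and 359 RPM. Outside the cluster the nearest neighbours were O170 on the left and O322 on the right. The gap of 55.5 kb between O196 and O251 was the fourth widest of 17 gaps on the chromosome, and 28.4 kb separated O251 from O280.

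The label of late replication was first set against the wild type. Ranked by HU block signal in the 10 kb around each origin, O196 came last of 317 in the wild type, O251 came 304th and O280 came 200th. In the double mutant libraries that located them, the same origins ranked 261st, 255th and 178th. O322, only 42.5 kb to the right of O280, ranked 60th in the wild type, so that an origin with high HU block signal borders the cluster. Low wild type ranks were not particular to the cluster. Elsewhere on the chromosome O170, O127, O714, O739 and O62 ranked 315th, 311th, 300th, 299th and 297th, and O412, O359, O450 and O692 ranked 273rd to 239th. O610, O546, O632, O90 and O343 ranked 31st, 95th, 98th, 145th and 198th. Wild type HU block means were only 18.2 to 29.3 RPM around O196, O251, O170, O127, O714, O739 and O62. The 10th percentile window of the genome had 23.20 RPM in wild type HU block replicate 1 and 23.98 RPM in replicate 2. Signal so near the level between peaks cannot grade how late these origins are, so their order is only a description.

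In asynchronous cells the signal of the cluster was close to that of the rest of the chromosome, and in the wild type HU block it was lower. Its mean signal divided by that of the rest of chromosome XIV, called the cluster ratio below, was 0.362 and 0.288 in the wild type HU block libraries, against 0.974 ± 0.0579 (SD, n = 2) in the asynchronous preparations. The HU block values lay below both asynchronous ones, by 1.59 on the log2 scale (log2 change −1.59, SE 0.26, limma adjusted p = 2.61e-05). That test ran across 102 blocks of the same 120 kb length, 95.1% of which were called, 56 as lower and 41 as higher. The cluster ranked 20th from the lowest. With window medians the change was −0.24 and did not pass (limma adjusted p = 0.237). Of the 60 windows, 53 were lower in the HU block and 0 higher (limma-trend on log2(RPM + 1), adjusted p under 0.05), against 55.1% lower and 16.7% higher, 71.8% in all, of 5883 windows of the genome. Without the first asynchronous preparation 25 windows were called, and without wild type HU block replicate 2 there were 30.

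The windows that fell most in the HU block lay at O196 and in the gap to its right. The window from 196001 to 198000, in ZWF1, had 7.40 and 14.8 RPM in the wild type HU block, against 78.8 and 82.6 RPM in asynchronous cells (log2 change −2.82, limma adjusted p = 3.13e-05). From 216001 to 218000, in PDR16, the wild type HU block had 14.5 and 18.0 RPM and asynchronous cells 129 and 112 RPM (log2 change −2.82, limma adjusted p = 0.00015). Groups did not overlap in either window. The 7 windows that were not called lay on both sides of O280, between 270001 and 288000. In the asynchronous shares the profile was nearly flat. Between the maxima found within 10 kb on the left and right of each origin, the lowest smoothed signal was 46.7 to 73.4 RPM at O196. It was 33.7 to 73.0 RPM at O251 and 49.5 to 85.8 RPM at O280, where cluster means were 92.6 to 130 RPM. A minimum taken between maxima is low by construction, so these values do not show a trough at an origin. The signal of the 10 kb around an origin was lower in the wild type HU block than in asynchronous cells at all 3, by log2 changes of −2.38 at O196 (limma adjusted p = 4.64e-06), −1.80 at O251 (limma adjusted p = 2.38e-06) and −0.53 at O280 (limma adjusted p = 0.00968), where 40.4% of all origins were lower. The call at O280 was lost without wild type HU block replicate 2 (limma adjusted p = 0.0991) and without the second asynchronous preparation (limma adjusted p = 0.0827). In the asynchronous shares the minimum at O251 lay between 252600 and 253400 in 5 of the 6 shares, to the right of the peak midpoint.

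**Figure D2:**
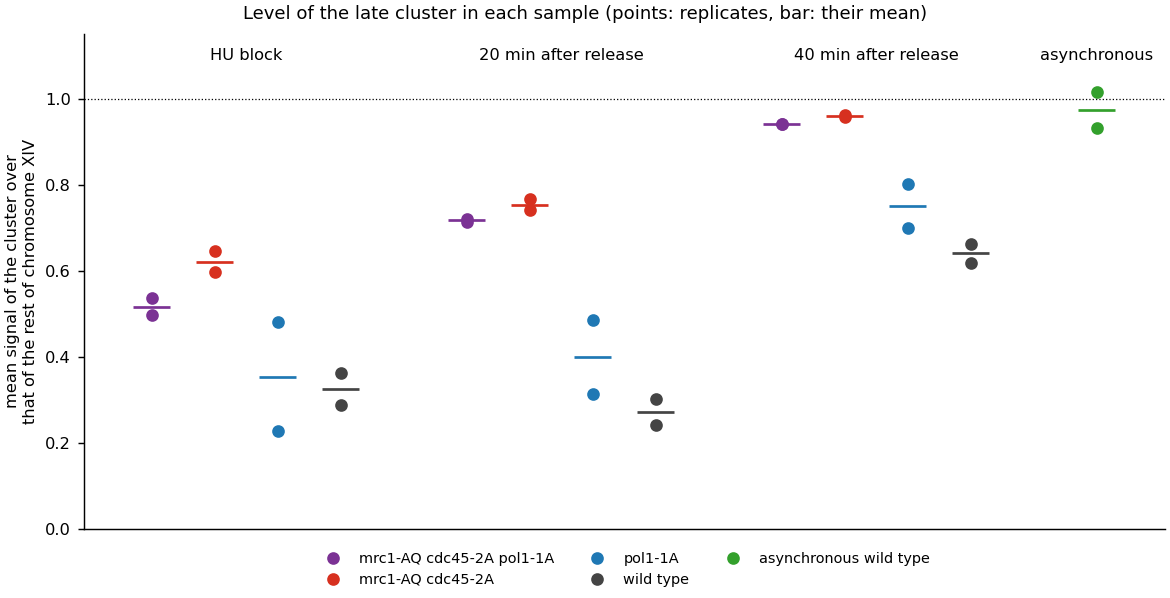
Mean signal of the cluster divided by that of the rest of chromosome XIV (no unit) for each sample, grouped by time, with triple mutant, double mutant, *pol1-1A* and wild type from left to right and asynchronous wild type at the right end. Points are replicates and bars their means, and the dotted line marks equal signal. The wild type stays under 0.4 in the HU block and at 20 minutes, while the double mutant is at 0.596 or above at every time.

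The double mutant carried more fork signal in the cluster than the wild type from the HU block on. Its cluster ratio in the HU block was 0.646 and 0.596, against 0.362 and 0.288 in the wild type (log2 change 0.94, SE 0.26, limma adjusted p = 0.00642, 76.5% of blocks called). At 20 minutes it was 0.766 and 0.742, against 0.303 and 0.241 in the wild type, a change of 1.48 on the log2 scale (limma adjusted p = 0.000134, 87.3% of blocks called). By 40 minutes the double mutant was at 0.963 and 0.958 and the wild type at 0.663 and 0.619, and this change of 0.58 did not pass (limma adjusted p = 0.0668, 59.8% of blocks called), though it did once libraries were blocked by sequencing pool (limma adjusted p = 0.0269). The double mutant libraries did not overlap those of the wild type at any of the 3 times, with an exact two-sided permutation p of 0.33, the smallest that 2 against 2 libraries can give. The fall of this change from 20 to 40 minutes did not pass (log2 difference −0.90, limma adjusted p = 0.0637, 46.1% of blocks called). Of the 102 blocks, 44, 52 and 31 were called higher in the double mutant over the 3 times, and 34, 37 and 30 lower. The calls of the cluster rest on means of the windows. With medians of the windows in place of means the change was 0.13 in the HU block (limma adjusted p = 0.685) and 0.22 at 20 minutes (limma adjusted p = 0.254), and without wild type HU block replicate 2 the change of 0.78 did not pass (limma adjusted p = 0.0608).

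Peaks in the cluster were also most frequent in the double and triple mutants. A peak had to stand out by at least 1 times the mean window value of its library. Both double mutant libraries had 3 peaks in the cluster in the HU block and 4 at 20 and at 40 minutes, and both triple mutant libraries had 2, 4 and 4. The *pol1-1A* libraries had 0 and 1 peaks in the HU block, 0 in both at 20 minutes and 1 and 2 at 40 minutes. In the wild type there were 0, 0 and 1 peaks in both libraries. More peaks were also called in the double mutant on the rest of chromosome XIV, so the excess was not confined to the cluster. There the double mutant had 20 and 19 in the HU block, 23 and 22 at 20 minutes and 27 and 25 at 40 minutes. The wild type had 12 and 12, 10 and 11, and 9 and 10. In the mean of the double mutant libraries the peak left of O196 stood at 194200 in the HU block, 193800 at 20 minutes and 192600 at 40 minutes, and the peak left of O251 at 248600, 248000 and 247600. The only peak in the wild type mean, at 40 minutes, was at 277600, left of O280. The groups of double mutant and wild type libraries did not overlap at any time (exact permutation test, two-sided, p = 0.33, the smallest possible).

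Around each origin the double mutant carried several times the wild type signal in the HU block. Mean signal in the 10 kb around O196 was 144 and 114 RPM in the double mutant, against 17.0 and 19.5 RPM in the wild type. Around O251 the double mutant had 149 and 125 RPM and the wild type 24.2 and 29.2 RPM. These wild type values at O196 and O251 lie near or below the 10th percentile window of the genome (23.20 and 23.98 RPM). The size of the excess at O196 and O251 therefore rests on wild type signal near the level between peaks. O280 had 287 and 262 RPM in the double mutant and 84.2 and 70.8 RPM in the wild type. The libraries did not overlap at any of these origins, and the log2 changes of 2.80, 2.35 and 1.83 are given without a test, since the double mutant HU block libraries also located the origins (median over all 317 origins 0.86). O322, next to the cluster, had 627 and 719 RPM in the double mutant and 680 and 770 RPM in the wild type. Several-fold excesses were also seen outside the cluster. Means in the double mutant and the wild type were 203 and 24.8 RPM at O127, 182 and 29.3 RPM at O62 and 172 and 35.5 RPM at O412. At O610 and O632 the wild type was higher, with 789 and 954 RPM and 273 and 447 RPM in the same order.

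**Figure D3:**
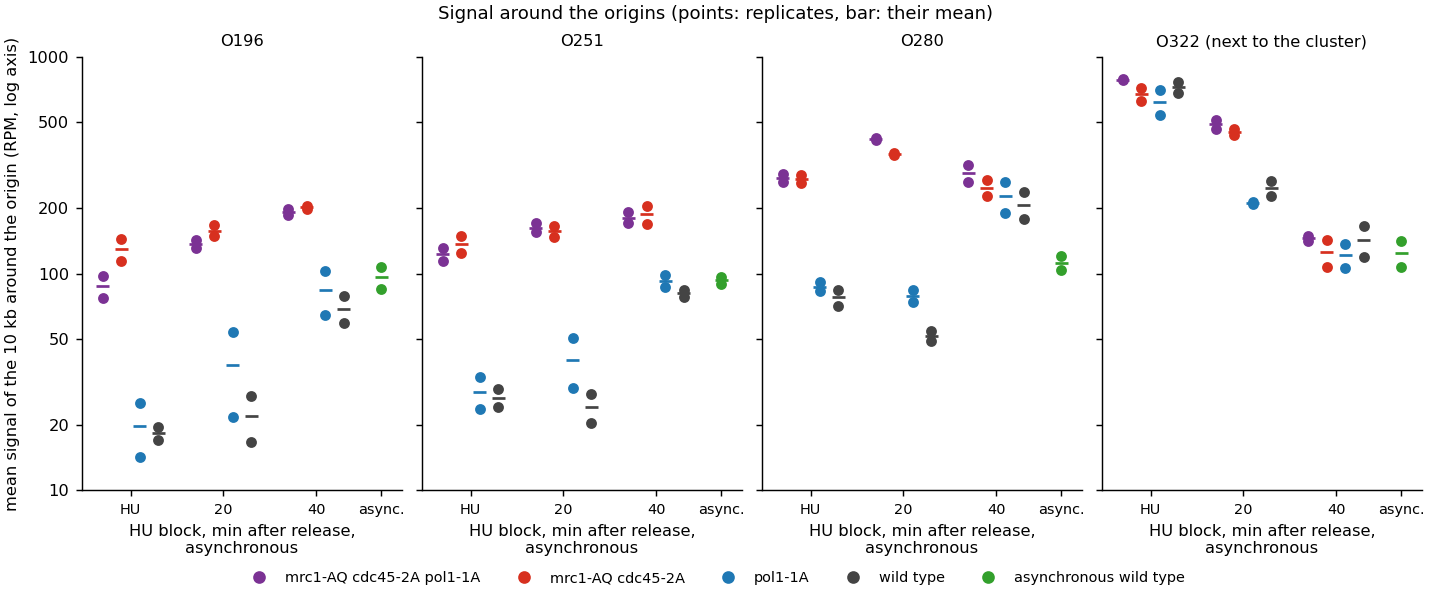
Mean signal in the 10 kb around each origin (RPM, log axis) in the HU block, at 20 and 40 minutes and in asynchronous cells, with the strains of each time in the order triple mutant, double mutant, *pol1-1A*, wild type. Points are replicates and bars their means. At O196, O251 and O280 the mutants with *mrc1-AQ cdc45-2A* lie above the other strains in the HU block and at 20 minutes, whereas the 4 strains lie within 542 to 790 RPM at O322 in the HU block.

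Windows on a fixed grid were tested next. In the HU block 12 of the 60 windows were higher in the double mutant than in the wild type and 0 lower (limma-trend adjusted p under 0.05), against 16.7% higher and 9.3% lower (26.0% in all) in the genome. The share of higher windows in the cluster was close to that background. They formed a run of 4 at each origin, from 192001 to 200000, from 246001 to 254000 and from 276001 to 284000. This placement is a description, since the origins were located in the same double mutant libraries. The window from 196001 to 198000 had 158 and 128 RPM in the double mutant and 7.40 and 14.8 RPM in the wild type (log2 change 3.63, limma adjusted p = 4.04e-06). Its left neighbour, from 194001 to 196000 in ATG2, had 178 and 146 RPM in the double mutant, against 11.8 and 20.7 RPM in the wild type (log2 change 3.29, limma adjusted p = 5.34e-06). At O280 the window from 280001 to 282000, in DUG3, had 341 and 328 RPM in the double mutant and 26.9 and 35.3 RPM in the wild type (log2 change 3.40, limma adjusted p = 1.42e-07). In all of them every double mutant library was above every wild type library.

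At 20 minutes more windows differed. Of the 60, 22 were higher in the double mutant and 0 lower, against 28.1% higher and 14.1% lower (42.2% in all) in the genome. Of these, 19 formed runs around each origin, from 190001 to 204000, from 244001 to 256000 and from 274001 to 286000. The largest change was from 282001 to 284000, where the double mutant had 425 and 451 RPM and the wild type 49.4 and 51.1 RPM (log2 change 3.10, limma adjusted p = 1.2e-08). From 276001 to 278000 in CHS1 the double mutant had 479 and 474 RPM, against 62.1 and 50.7 RPM in the wild type (log2 change 3.06, limma adjusted p = 7.98e-09). The signal in 10 kb around the origins was tested at this time, and all 3 origins were higher in the double mutant, as were 72.6% of all origins. All origins had been located in the HU block of this same strain. That choice favours higher signal in the double mutant, so these calls cannot show an excess by themselves. The log2 changes were 2.88 at O196 (limma adjusted p = 6.06e-07), 2.71 at O251 (limma adjusted p = 1.51e-08) and 2.79 at O280 (limma adjusted p = 6.55e-11), against a median of 1.37 over all origins.

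The other 3 lay in the gap between O196 and O251, away from any located origin. These windows, from 230001 to 232000, from 232001 to 234000 and from 236001 to 238000, were higher in the double mutant at 20 minutes, with log2 changes of 1.39, 1.27 and 1.23 (limma adjusted p = 0.0238, 0.0382 and 0.0487). From 230001 to 232000 the double mutant had 58.4 and 56.8 RPM and the wild type 23.5 and 19.3 RPM. From 236001 to 238000 the double mutant had 68.5 and 55.7 RPM, against 28.6 and 23.1 RPM in the wild type. The triple mutant had 59.6 and 50.3 RPM in the first of these windows and 66.9 and 56.0 RPM in the last. From 234001 to 236000 the signal was lower than in either, at 39.7 and 32.6 RPM in the triple mutant and 49.5 and 36.7 RPM in the double mutant. In the HU block the double mutant had 60.0 and 53.1 RPM from 236001 to 238000, against 33.6 and 26.1 RPM in the wild type, and that window was not called. The 3 were chosen for mention after their values were seen.

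At 40 minutes fewer windows were called than at 20 minutes, and the largest rises lay to either side of O196. The median log2 change over the 60 windows was not smaller, at 0.87, beside 0.65 at 20 minutes and −0.10 in the HU block. Over the genome these medians were 0.25, 0.13 and −0.25. At 40 minutes 14 windows were higher in the double mutant than in the wild type and 2 lower, against 20.0% higher and 12.8% lower (32.8% in all) in the genome. The count of 16 rests on all 4 libraries, since it was 0 to 5 when any 1 of them was left out, and it was 28 with the pool as a replicate block. The largest rise was in the window from 202001 to 204000 in KEX2 (a Golgi protease), with 201 and 145 RPM in the double mutant and 56.7 and 33.8 RPM in the wild type (log2 change 1.94, limma adjusted p = 0.0235). On the left side of O196, from 188001 to 190000 in SLA2 (an adaptor of endocytosis and actin), the double mutant had 139 and 124 RPM, against 51.0 and 24.7 RPM in the wild type (log2 change 1.86, limma adjusted p = 0.0269). Around the origins O196 was still higher in the double mutant by 1.57 on the log2 scale (limma adjusted p = 0.00219) and O251 by 1.21 (limma adjusted p = 0.00161), with 41.6% of all origins called higher. The limit given for the origin tests at 20 minutes holds for these as well. At O280 the double mutant had 228 and 271 RPM and the wild type 178 and 237 RPM, overlapping values (log2 change 0.27, limma adjusted p = 0.215, and 0.0299 blocked by pool).

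Both lower windows lay at the right end of the cluster, next to O322. From 298001 to 300000, in PBR1, the double mutant had 38.2 and 26.4 RPM at 40 minutes, against 268 and 195 RPM in the wild type (log2 change −2.81, limma adjusted p = 0.0116). The window from 296001 to 298000, in IPI3 (a factor of ribosomal RNA processing), had 40.7 and 25.6 RPM in the double mutant and 155 and 132 RPM in the wild type (log2 change −2.11, limma adjusted p = 0.0324). The highest smoothed signal within 20 kb to the left of O322 was then 7900 and 7700 bp from its origin in the double mutant, against 15700 and 18300 bp in the wild type. In the HU block it lay at 2700 bp in each double mutant library, while the wild type distances were 3500 and 3700 bp. At 40 minutes it was at 7300 and 7700 bp in the triple mutant and at 15500 and 18300 bp in *pol1-1A*. All of these maxima were still outside the cluster, nearer to it in the wild type and *pol1-1A*.

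**Figure D4:**
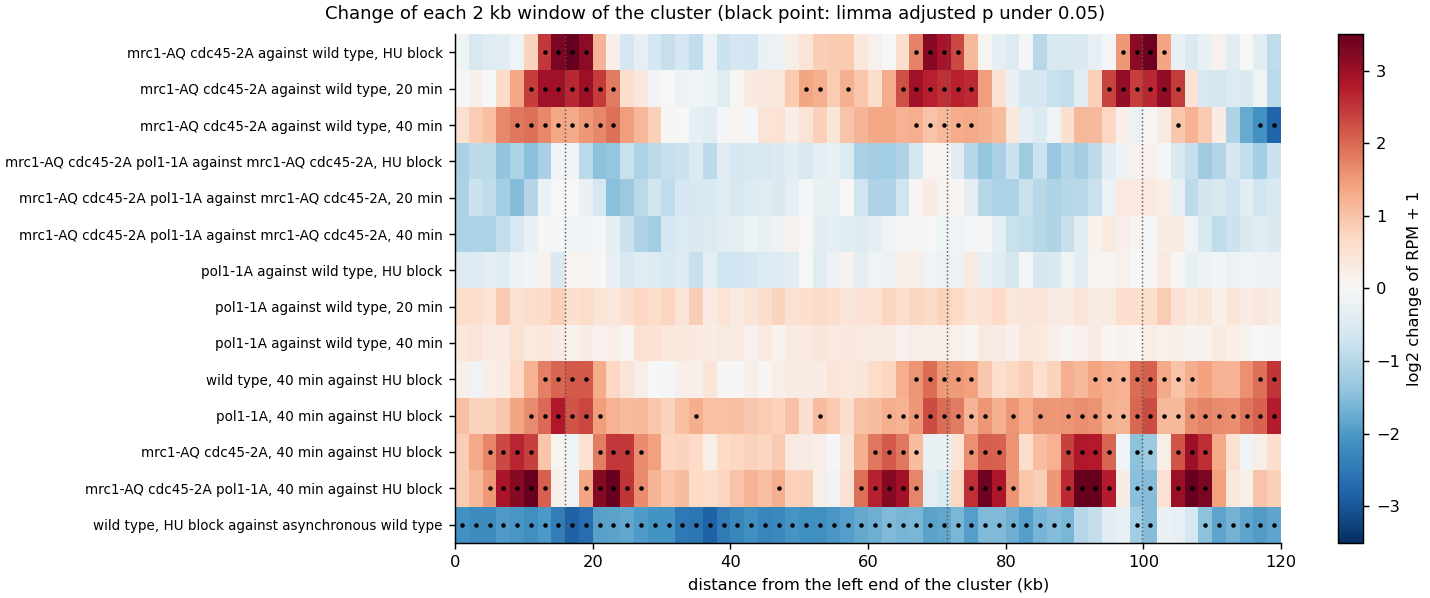
Log2 change of RPM + 1 in each of the 60 windows of 2 kb (colour, red higher and blue lower) along the cluster, as distance from its left end (kb), with 1 row per comparison. Black points mark windows with a limma adjusted p under 0.05 and dotted lines the 3 origins. Called windows of the double mutant against the wild type gather at the origins in the HU block and at 20 minutes, and the change between HU block and 40 minutes has called blue windows, over O280, only in the double and triple mutants among the 4 strains.

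By 40 minutes the cluster ratio was above its HU block value in every strain. In the wild type it was 0.303 and 0.241 at 20 minutes, below the HU block value of the same replicate. The median window of the cluster rose by 0.82, 1.26, 0.94 and 1.18 on the log2 scale in wild type, *pol1-1A*, double and triple mutant. Over the genome it rose by 0.91, 1.29, 0.91 and 1.17, so the rise of the median window was not particular to the cluster. The wild type ratio was 0.663 and 0.619 at 40 minutes, against 0.362 and 0.288 in the HU block (log2 change 0.99, limma adjusted p = 0.00386, 75.5% of blocks called). In *pol1-1A* it was 0.802 and 0.700 at 40 minutes and 0.480 and 0.227 in the HU block (log2 change 1.18, limma adjusted p = 0.000989, 85.3% of blocks called). The double mutant changed by 0.63 (limma adjusted p = 0.0383, 84.3% of blocks called) and the triple mutant by 0.87 (limma adjusted p = 0.00787, 88.2% of blocks called). Blocks called higher numbered 52, 58, 50 and 52 of 102 in wild type, *pol1-1A*, double and triple mutant, and those called lower 25, 29, 36 and 38. The call in the double mutant was lost when any 1 of its 4 libraries was left out (limma adjusted p 0.0737 to 0.138). With window medians in place of means the change did not pass in any strain (limma adjusted p 0.671 to 0.847), and that of the wild type was −0.08.

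Windows that gained signal by 40 minutes covered the origins in the wild type, while in the double mutant those over O280 lost signal. In the wild type 19 of 60 windows were higher at 40 minutes than in the HU block and 0 lower, against 43.7% and 13.2% (56.9% in all) of the genome. The count was 12 without wild type HU block replicate 2, 7 after quantile normalization and 29 when fitted on its own 4 libraries. Besides the right end of the cluster, the largest changes were in ZWF1 and NAR1, from 196001 to 200000. The window from 196001 to 198000 had 45.2 and 56.0 RPM at 40 minutes and 7.40 and 14.8 RPM in the HU block (log2 change 2.16, limma adjusted p = 0.000877). *pol1-1A* had 34 windows higher and 0 lower, against 56.0% and 13.4% (69.4% in all), and this count was 60 without its HU block replicate 1, 12 without HU block replicate 2 and 17 without 40 minute replicate 1, and it was 0 when fitted on its own 4 libraries and 4 after quantile normalization. The 10 kb signal rose at O196, O251 and O280 by 1.89, 1.60 and 1.41 in the wild type and by 2.09, 1.71 and 1.37 in *pol1-1A* (limma adjusted p 3.23e-05 or lower for *pol1-1A* and 0.000105 or lower for the wild type), where 49.8% and 51.7% of all origins rose.

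In the double mutant 22 windows were higher at 40 minutes and 2 lower, against 40.4% and 15.0% (55.4% in all) in the genome, and in the triple mutant 27 and 2, against 48.8% and 14.9% (63.8% in all). In the double mutant the count of 24 was 14 without HU block replicate 2 and 39 when fitted on its own 4 libraries, and in the triple mutant the count of 29 was 49 when so fitted. The 2 lower windows were the same pair in both strains, the ones over O280. From 278001 to 280000, in CHS1, the double mutant had 124 and 165 RPM at 40 minutes, against 401 and 378 RPM in the HU block (log2 change −1.44, limma adjusted p = 0.000427). There the triple mutant had 131 and 181 RPM at 40 minutes and 418 and 441 RPM in the HU block (log2 change −1.47, limma adjusted p = 0.000236). On both sides the signal had risen. From 286001 to 288000, in KAR1 (a spindle pole body protein), the double mutant had 388 and 377 RPM at 40 minutes and 60.7 and 36.4 RPM in the HU block (log2 change 3.00, limma adjusted p = 5.68e-05). From 272001 to 274000 the triple mutant had 352 and 321 RPM at 40 minutes, against 33.1 and 15.6 RPM in the HU block (log2 change 3.82, limma adjusted p = 9.67e-07). Over the whole 10 kb the triple mutant gained at O196 by 1.14 on the log2 scale (limma adjusted p = 0.0108), while the changes of 0.56 at O251 and 0.07 at O280 did not pass (limma adjusted p = 0.0714 and 0.737), and 75.4% of all origins were called, 51.4% as lower. The call at O196 was lost without triple mutant 40 minute replicate 1 (limma adjusted p = 0.0521), without HU block replicate 2 (limma adjusted p = 0.0809) and in 5 kb around the origin (0.40, limma adjusted p = 0.34). In 5 kb the changes at O251 and O280 turned to −0.25 (limma adjusted p = 0.504) and −1.12 (limma adjusted p = 0.00011), and with the replicate number as a block the 10 kb change at O251 passed (limma adjusted p = 0.0401).

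The wild type moved the other way over O280. From 278001 to 280000 it had 140 and 204 RPM at 40 minutes and 41.7 and 44.4 RPM in the HU block. The change between HU block and 40 minutes, set for the double mutant against that of the wild type in one fit, differed in 8 of the 60 windows, all lower in the double mutant, where 25.0% of the windows of the genome differed, 13% lower and 12% higher. The share of lower windows in the cluster was close to that background. The 8 windows lay from 194001 to 198000, from 248001 to 252000 and from 276001 to 284000, a run at each of the 3 origins, which the double mutant HU block libraries of this fit had located. The difference was −3.39 on the log2 scale from 278001 to 280000 (limma adjusted p = 3.48e-06) and −3.37 from 280001 to 282000 (limma adjusted p = 1.18e-05). With the pool as a replicate block 18 windows differed, 9 of them higher.

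**Figure D5:**
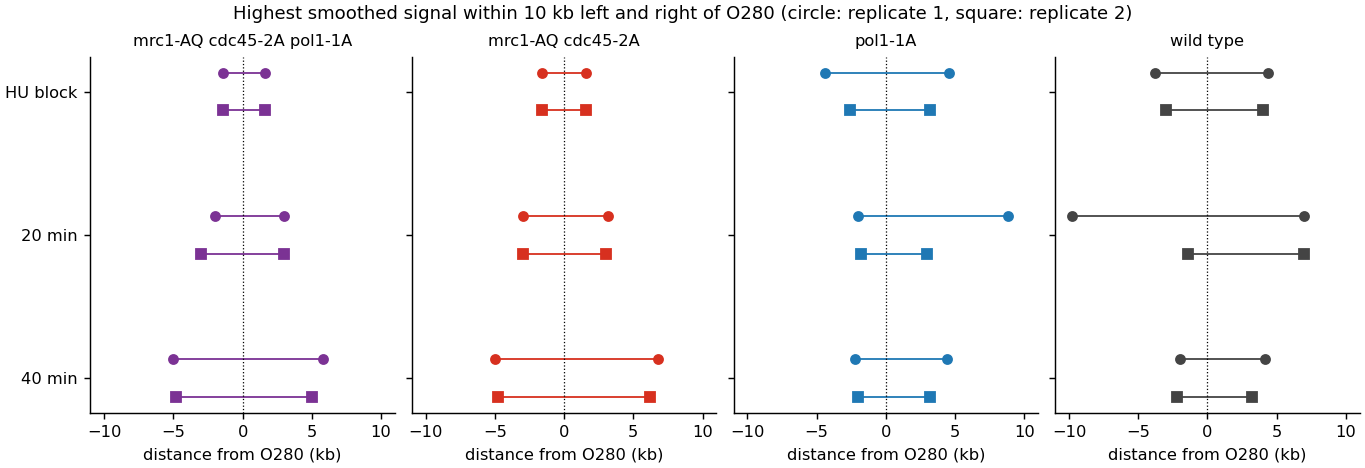
Distance (kb) from O280 to the highest smoothed signal within 10 kb on its left and right, for each strain (panels) in the HU block, at 20 and at 40 minutes (top to bottom). Circles are replicate 1 and squares replicate 2. The pairs of the triple and double mutants widen with time, from 3000 or 3200 bp in the HU block to 9800 to 11800 bp at 40 minutes, while the wild type pairs at 40 minutes span 5400 and 6200 bp.

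Peak pairs at O280 traced this movement. In the double mutant the left and right maxima were 3200 bp apart in both HU block libraries, 6200 and 6000 bp at 20 minutes and 11800 and 11000 bp at 40 minutes, the HU block spacing being the one that placed the origin. In the triple mutant they were 3000 bp apart in both HU block libraries, 5000 and 6000 bp at 20 minutes and 10800 and 9800 bp at 40 minutes, when both were narrower than in either double mutant library. At that time the maxima were 6600 and 5200 bp apart in *pol1-1A*, against 6200 and 5400 bp in the wild type, ranges that overlap. Maxima at O280 were sought within 10 kb, a limit set after the values had been seen in place of 20 kb. Within 20 kb the spans at 40 minutes were 22200 and 5200 bp in *pol1-1A* and 22000 and 5400 bp in the wild type, and the highest signal right of O280 in each replicate 1 was then at the outer limit, towards O322. Those of the double and triple mutants were the same within either limit. The height of the left maximum at 40 minutes was 471 and 506 RPM in the triple mutant, 377 and 392 RPM in the double mutant, 245 and 343 RPM in *pol1-1A* and 249 and 310 RPM in the wild type. Spans at O196 and O251 were less regular. Within 10 kb at 40 minutes, O196 had 6700 bp (SD 3536) in the double and 6400 bp (SD 2263) in the triple mutant. O251 had 6600 bp (SD 3960) and 6300 bp (SD 3536), so the narrower spans of the triple mutant were seen at O280 only.

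In the wild type HU block the maxima beside O280 were higher than those beside O196 and O251. They reached 126 and 102 RPM on the left, at 3800 and 3000 bp, and 131 and 96.5 RPM on the right, at 4400 and 4000 bp, with 19.1 and 28.1 RPM between them. At O251 the maxima were 54.3 and 40.4 RPM on the left and 51.4 and 34.0 RPM on the right, with 9.43 and 15.9 RPM between them. None of these maxima passed the peak threshold. The *pol1-1A* libraries had 148 and 115 RPM on the left, at 4400 and 2600 bp, and 138 and 130 RPM on the right. In the wild type at 40 minutes both left maxima were higher, at 249 and 310 RPM, and nearer, at 2000 and 2200 bp. At O196 and O251 the highest smoothed value within 10 kb in the HU block was 14.8 to 88.3 RPM in *pol1-1A* and 23.5 to 54.3 RPM in the wild type.

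The 20 kb stretches showed how uneven the cluster was. Between 200000 and 220000, the stretch with the lowest HU block signal in the double and triple mutants, the double mutant had a mean of 20.9 and 20.8 RPM in the HU block, 34.6 and 34.7 RPM at 20 minutes and 76.5 and 60.7 RPM at 40 minutes. The wild type had 23.4 and 21.7, 18.2 and 18.2, and 37.3 and 24.7 RPM there. From 220000 to 240000 the double mutant had 35.8 and 34.8 RPM, then 43.6 and 39.4 RPM, then 53.0 and 50.3 RPM, the lowest stretch of all at 40 minutes. In asynchronous cells the same stretch was the highest of the 6 in 5 of 6 shares, and it had 104 to 143 RPM over all shares. From 260000 to 280000 the double mutant had 107 and 92.5 RPM in the HU block, against 64.4 and 43.2 RPM in the wild type.

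No change of *pol1-1A* against the wild type in the cluster ratio or the windows passed in the fit of all groups. That fit did not pair the strains by pool. Deviations of *pol1-1A* and wild type libraries correlated at 0.709, 0.726 and 0.795 over the 3 times, so it cannot show that the strains are alike. The ratios did not overlap at 20 and 40 minutes. In the HU block the *pol1-1A* ratio was 0.480 and 0.227, on both sides of the wild type values of 0.362 and 0.288 (log2 change 0.03, limma adjusted p = 0.967). This value depends on 1 library, being −0.51 without *pol1-1A* HU block replicate 1 and 0.57 without replicate 2 (limma adjusted p = 0.0847 and 0.0392). At 20 minutes the ratio was 0.486 and 0.314, against 0.303 and 0.241 (log2 change 0.53, limma adjusted p = 0.223, 0.98% of blocks called), and at 40 minutes 0.802 and 0.700, against 0.663 and 0.619 (log2 change 0.23, limma adjusted p = 0.778), with 0.0% of blocks called in the HU block and at 40 minutes. None of the 60 windows was called at any of the 3 times, with 0, 4 and 0 at an unadjusted p under 0.05, and 0.0% of windows were called in the genome each time. The quasi-likelihood test of edgeR also called 0. Leaving out *pol1-1A* HU block replicate 1 gave 31 called windows in the HU block.

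Around the origins *pol1-1A* was above the wild type at 20 minutes at each of the 3, without passing the test. O280 had 83.8 and 74.2 RPM in *pol1-1A* and 54.0 and 48.9 RPM in the wild type, which did not overlap (log2 change 0.62, limma adjusted p = 0.174). O251 had 50.1 and 29.6 RPM in *pol1-1A* and 27.6 and 20.5 RPM in the wild type (log2 change 0.69, limma adjusted p = 0.174), and O196 had 53.7 and 21.8 RPM in *pol1-1A* and 27.1 and 16.6 RPM in the wild type (log2 change 0.68, limma adjusted p = 0.22). Blocked by pool, O251 and O280 passed (limma adjusted p = 0.0351 and 0.00637). Without *pol1-1A* 20 minute replicate 2 all 3 origins passed, with log2 changes of 1.33, 1.07 and 0.70 at O196, O251 and O280 (limma adjusted p = 0.0308, 0.0305 and 0.0348). The median window of the genome also differed in these libraries, with 93.8 and 46.1 RPM in *pol1-1A* and 65.0 and 41.5 RPM in the wild type, and its part in the result was not tested. Changes in the HU block were 0.05, 0.08 and 0.17 at O196, O251 and O280, and at 40 minutes 0.26, 0.19 and 0.13, none of which passed, and 0.0% of all origins were called at any time.

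With *pol1-1A* added to the double mutant, the cluster ratio was slightly lower in every library, without passing the test, and the direction turned with window medians (0.028, 0.13 and 0.075 over the 3 times) and, at 40 minutes, with limits of 190 to 290 kb (0.025). In the HU block it was 0.536 and 0.497 in the triple mutant, against 0.646 and 0.596 in the double mutant (log2 change −0.27, SE 0.26, limma adjusted p = 0.604). At 20 minutes it had 0.720 and 0.714 and the double mutant 0.766 and 0.742 (log2 change −0.07, limma adjusted p = 0.942). The 40 minute values were 0.942 in both triple mutant libraries, against 0.963 and 0.958 in the double mutant (log2 change −0.03, limma adjusted p = 0.959). Groups did not overlap at any time, the exact permutation p being 0.33 in each, and 0.0% of blocks were called. The SE of 0.26 was shared by all groups. In the HU block the SD of the log2 ratio was 0.765 in *pol1-1A*, against 0.077 in the triple and 0.082 in the double mutant (n = 2 each). The test thus cannot show that the triple and double mutants are alike. By replicate the log2 difference in the HU block was −0.270 and −0.263. No window of the cluster was called at any time, with 7, 3 and 0 of 60 at an unadjusted p under 0.05 and 0.017%, 0.0% and 0.0% of windows called in the genome. edgeR also called 0. With the pool as a replicate block 4 windows were called in the HU block, and 26, 29 and 16 were called over the 3 times when each comparison was fitted on its own 4 libraries.

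Around the origins no difference between the triple and the double mutant passed a test after release, though the libraries of some groups did not overlap. At O196 the triple mutant had 97.5 and 77.4 RPM in the HU block and the double mutant 144 and 114 RPM, which did not overlap. At O251 the triple mutant had 132 and 115 RPM and the double mutant 149 and 125 RPM, and at O280 the triple mutant had 287 and 266 RPM and the double mutant 287 and 262 RPM, overlapping at both. These HU block values carry no test, for the reason given. At 20 minutes the triple mutant libraries had 421 and 414 RPM around O280 and those of the double mutant 361 and 355 RPM, with no overlap (log2 change 0.22, limma adjusted p = 0.972). After release the log2 changes ran from −0.21 to 0.22 over the 3 origins and none passed, with 0.315% of all origins called at 20 minutes and 0.631% at 40 minutes. Medians over the 60 windows of the log2 change were −0.81, −0.57 and −0.34 in the HU block, at 20 and at 40 minutes, beside −0.65, −0.45 and −0.24 over the genome, so that the median window was lower in the triple mutant in the cluster as in the genome. The difference between the 2 *pol1-1A* effects, with and without *mrc1-AQ cdc45-2A*, did not pass for the cluster ratio at any time (limma adjusted p 0.303 to 0.819).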

How the data were processed

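The authors deposited 1 table of signal in RPM for 60303 windows. Per the notes and methods, reads were trimmed (Trim Galore 0.6.5), mapped (Bowtie2 2.4.1, R64), de-duplicated, truncated to 1 nucleotide, freed of repeated regions and divided by all mapped reads, which hides gains or losses common to the genome. Strain, time, replicate and pool came from the labels. In each library 100% of the deposited values were a whole number of reads (within 0.01 read) on a common scale, which gave the depth, and counting precision follows from it.

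The cluster ratio was tested across 102 blocks of 120 kb with limma 3.58.1 in R 4.3.3, and log2(RPM + 1) of 5883 non-overlapping windows (mean of at least 1 RPM) with limma-trend, in 1 fit of all groups. P-values are Benjamini-Hochberg adjusted over all blocks, windows or origins, and only the cluster is printed. Fold changes on this scale are understated at low signal. Asynchronous shares were averaged by preparation. Peaks were called with scipy 1.17.1 on signal smoothed over 15 windows. Annotated ARS sites had been planned as origins, but no table of them was used here, so midpoints of peak pairs 2 to 9 kb apart stood in, a rule set after profiles had been seen. Positions named are origins, group-mean peaks, 20 kb stretches and, for each comparison, up to 3 windows each way with the largest change among those past the threshold and changed alike in both replicates. The members and lists were chosen with earlier results of these data known. The steps were tested on simulated data. The simulated libraries of the window tests held no difference in level between replicates, so they do not give error rates for the spread seen here.

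Strains of one replicate and time shared a pool per the labels, and their deviations from group means correlated at 0.161 to 0.795, so the pool was tried as a replicate block. Other alternatives were the scaling, quantile normalization, the pseudocount, the filter, edgeR 4.0.16 on recovered reads, medians, cluster and reference limits, peak settings and leaving out each library. The difference of changes between strains and the limit of 10 kb on fork positions, in place of 20 kb, were added after seeing the data. Replicates are biological repeats per the methods, with 2 a group.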

Additional observations from a re-analysis of the deposited data

Results flagged for a closer look

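The change between HU block and 40 minutes differed between the double mutant and the wild type, by a test of the difference itself, in 8 windows of the cluster, all of them lower in the double mutant, a share of the 60 close to the 13% of windows lower in the genome, and 4 of them are given here. The window from 194001 to 196000 had a difference of −1.94 (limma adjusted p = 0.025), with 152 and 193 RPM at 40 minutes and 178 and 146 RPM in the HU block in the double mutant, against 75.6 and 59.1 RPM and 11.8 and 20.7 RPM in the wild type. From 196001 to 198000 the difference was −2.29 (limma adjusted p = 0.0142), with 110 and 151 RPM at 40 minutes and 158 and 128 RPM in the HU block in the double mutant, against 45.2 and 56.0 RPM and 7.40 and 14.8 RPM in the wild type. At O280 it was −3.39 from 278001 to 280000 and −3.37 from 280001 to 282000. In the second of these the double mutant had 118 and 161 RPM at 40 minutes and 341 and 328 RPM in the HU block, against 102 and 178 RPM and 26.9 and 35.3 RPM in the wild type. No library of the asynchronous cells stood apart from the other 5 shares in the cluster ratio, the stretches or the origins, by Dixon's test for a single outlying value. That test cannot show a difference between the 2 preparations. Their cluster ratios did not overlap, at 1.01, 1.03 and 1.01 in the first and 0.912, 0.939 and 0.948 in the second. Only the share of the second preparation in pool 6 had called peaks in the cluster, 2 in number. It was the shallowest library, with 317539 mapped reads, 1965 reads in the cluster and a median of 31 reads per cluster window.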

How the results depend on the processing

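All levels depend on the mean of windows that hold peaks. With window medians the 7 called changes of the cluster ratio did not pass, at 0.13 and 0.22 for the double mutant against the wild type in the HU block and at 20 minutes, −0.076, 0.066, 0.056 and 0.10 for 40 minutes against the HU block in wild type, *pol1-1A*, double and triple mutant, and −0.24 for the HU block against asynchronous cells, and the triple against the double mutant turned to 0.028, 0.13 and 0.075 over the 3 times. Limits of 190 to 290 kb gave 0.75 for the double mutant against the wild type at 40 minutes (limma adjusted p = 0.00717) and 0.025 for triple against double. With background subtracted the double mutant change by 40 minutes was 0.78 (limma adjusted p = 0.0721).

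Quantile normalization called 22, 34 and 33 windows for the double mutant against the wild type over the 3 times, 7 and 4 for 40 minutes against the HU block in wild type and *pol1-1A*, 29 against asynchronous cells and 21 for the difference of changes. A fit of only the 4 libraries compared called 36 for the double mutant at 40 minutes (ratio change 0.58, limma adjusted p = 0.000111), 26, 29 and 16 for triple against double, and 29, 0, 39 and 49 by 40 minutes in wild type, *pol1-1A* (ratio change 1.18, limma adjusted p = 0.129), double and triple mutant. edgeR called 17 for *pol1-1A* by 40 minutes. The cause was not tested.

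With the pool as a replicate block, 28 windows differed between double mutant and wild type at 40 minutes (ratio change 0.58), 4 between triple and double mutant in the HU block, and 18 in the difference of changes. Between times, where numbers were not shown to pair samples (correlations 0.283 to 0.463), the block moved O251 in the triple mutant by 40 minutes past the threshold (0.56, limma adjusted p = 0.0401).

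Leaving out single libraries gave 0 to 31 windows for *pol1-1A* in the HU block and 0 to 5 for the double mutant at 40 minutes, against the wild type. It gave 12 to 18, 12 to 60 and 14 to 22 by 40 minutes in wild type, *pol1-1A* and double mutant, 25 to 54 against asynchronous cells and 4 to 8 for the difference of changes. Ratio changes ran from −0.51 to 0.57 for *pol1-1A* in the HU block, 0.78 to 1.11 for the double mutant in the HU block and 0.57 to 0.69 for the double mutant by 40 minutes. The peak difference of *pol1-1A* in the HU block was 0 to 1, and 0 at a prominence of 0.5 or 2 times the mean. That of triple against double was 0 at both and without smoothing.

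In 5 kb around origins, *pol1-1A* against the wild type in the HU block was −0.10 at O196 and −0.14 at O251, the double mutant at 40 minutes −0.10 at O280, and the triple mutant by 40 minutes −0.25 at O251 and −1.12 at O280, the last also −0.022 when scaled to reads inside windows. Without single libraries, *pol1-1A* against the wild type ran from −0.35 to 0.46 at O196 and −0.17 to 0.32 at O251 in the HU block, and from −0.078 to 0.60 at O196 and −0.11 to 0.37 at O280 at 40 minutes. Triple against double at O251 ran from −0.035 to 0.13 at 20 minutes and −0.18 to 0.086 at 40 minutes, and O280 in the triple mutant by 40 minutes from −0.062 to 0.20. Another pseudocount, no filter, chromosome ends left out and the genome as reference changed no call. The precision of a single window rests on medians of 66 to 913 reads per cluster window in the 24 libraries and 31 to 171 in the asynchronous shares.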
